A study of Homo sapiens with 18 samples.

Results

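Exon junctions with higher values in both paclitaxel-treated and TRA2A-overexpressing MDA-MB-231 cells than in control cells were selected from the exon-level arrays. A junction was taken when its mean over the 9 arrays was at least 3.89 on the log2 scale, when both group means exceeded the control mean by at least 1.5 on the log2 scale, and when every array of both groups lay above every control array. Of 339146 junction probe sets, 249240 met the mean filter and 1053 of these (0.422%) met the rule. The mirrored rule, for junctions lower in both groups, was met by 2477 (0.994%). Because the differences from control chose the junctions, those differences are given as descriptions, without a test. PTX minus 231T is the difference between both quantities that the rule bounds. Its limma calls on the selected junctions and their genes are therefore shaped by the selection as well, and their shares are not read against those of all junctions.

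MDA-MB-231 is an established cell line from a human breast cancer of the triple-negative class. All cells were grown in medium with 10% fetal bovine serum. The control group carried no treatment in the labels, the PTX group received medium with 10 nM paclitaxel, which stabilises microtubules, and the 231T group carried exogenous TRA2A from a vector. Each group had 3 arrays. The duration of treatment, the promoter, insert and delivery of the vector, whether the cells were pooled or clonal and whether control cells received an empty vector are not given in the labels. The description of 2 control arrays ends the cell name with another digit, and their source and cell line labels were followed. The labels did not say whether a group's arrays came from separate cultures, so the p-values measure the spread between arrays, which may be technical.

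Splicing joins exons, and a junction probe set targets sequence on both sides of such a joint, whereas an exon-part probe set targets sequence within an exon. A junction value therefore moves with the amount of the gene's RNA and with the share of that RNA that carries the joint. TRA2A is a serine- and arginine-rich RNA-binding protein that promotes the use of exons with purine-rich enhancers. Paclitaxel arrests cells in mitosis, and many genes of DNA replication and chromosome structure are transcribed in particular phases of the cell cycle.

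The selected junctions gathered in genes. One gene symbol was given for 961 of the 1053, several for 42 and none for 50, and the 961 lay in 552 genes. There were 167 genes with at least 2 selected junctions, 84 with at least 3 and 33 with at least 5, while 385 genes had a single one. DHX9, an RNA helicase, had the most, with 17 of its 31 tested junctions. THBS1, which encodes the secreted matrix glycoprotein thrombospondin, followed with 14 of 21. JAG1, a ligand of Notch receptors, had 13 of 28, and MCM8, a helicase subunit used in homologous recombination, had 13 of 24. By probe set number, 351 of the selected junctions formed 69 groups of at least 3 that were at most 10 numbers apart. Only 1033 of the 1053 sets of values were distinct, since 37 junctions held the same values as another probe set. These counts follow from the rule and were not tested.

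The promoters of some of these genes are shown because their junctions were higher together. The sequences are RefSeq's (GRCh38.p14), 5′ to 3′ on the gene's strand, from 250 bases before to 50 bases after the annotated start. DHX9 and THBS1 had the most selected junctions, MCM8 was the replication gene with the most, and CDC6, which loads the replicative helicase at origins, had the highest gene-level difference between 231T and control among genes with at least 5. Capitals mark matches on either strand to TTTGGCGC and TTTCGCGC (forms of the E2F site). They also mark TTTGAA, the element of cell cycle genes named CHR. The CCAAT box, searched by the letters of its name, is marked in the same way. The GC box was searched as GGGCGG. The TATA box, which lies before the start of some genes, was searched as TATAAA. Adjacent or overlapping matches run together.
DHX9, chr1:182839097-182839396, + strand: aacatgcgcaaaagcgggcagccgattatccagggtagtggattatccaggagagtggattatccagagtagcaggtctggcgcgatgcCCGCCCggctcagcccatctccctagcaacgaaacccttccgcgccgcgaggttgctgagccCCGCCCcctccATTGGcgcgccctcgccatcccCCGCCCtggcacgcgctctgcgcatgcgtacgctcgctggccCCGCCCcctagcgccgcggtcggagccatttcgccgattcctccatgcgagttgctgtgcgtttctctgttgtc
THBS1, chr15:39580829-39581128, + strand: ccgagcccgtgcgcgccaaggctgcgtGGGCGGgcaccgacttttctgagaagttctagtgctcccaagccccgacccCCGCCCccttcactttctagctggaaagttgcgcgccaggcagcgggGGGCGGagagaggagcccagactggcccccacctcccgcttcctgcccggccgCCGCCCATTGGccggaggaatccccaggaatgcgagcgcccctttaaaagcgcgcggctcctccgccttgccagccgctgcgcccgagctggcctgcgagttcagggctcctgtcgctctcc
MCM8, chr20:5950402-5950701, + strand: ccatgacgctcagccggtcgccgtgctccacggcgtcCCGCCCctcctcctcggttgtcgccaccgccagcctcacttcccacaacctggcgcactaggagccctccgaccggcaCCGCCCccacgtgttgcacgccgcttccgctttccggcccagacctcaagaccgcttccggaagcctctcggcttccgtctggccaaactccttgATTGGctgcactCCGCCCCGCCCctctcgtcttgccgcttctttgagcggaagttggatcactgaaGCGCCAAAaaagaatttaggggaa
CDC6, chr17:40287629-40287928, + strand: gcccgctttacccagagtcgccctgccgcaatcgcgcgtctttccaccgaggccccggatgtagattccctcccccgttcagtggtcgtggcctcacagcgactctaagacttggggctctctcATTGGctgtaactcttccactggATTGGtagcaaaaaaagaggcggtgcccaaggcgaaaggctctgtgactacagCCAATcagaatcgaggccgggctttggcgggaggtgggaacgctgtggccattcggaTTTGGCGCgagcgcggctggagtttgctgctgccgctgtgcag

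MCM8 and CDC6 each held 1 match to TTTGGCGC, on opposite strands, whereas DHX9 and THBS1 held neither E2F form. DHX9 and THBS1 each held 1 CCAAT and 4 GC box matches, and CDC6 held 3 CCAAT matches and no GC box. Either E2F form was present in 1.18% of 27305 promoters in the table and in 5.27% of the 474 promoters found for genes with a selected junction. The share was 15.3% of 72 promoters for genes with at least 3 selected junctions. Among 28 promoters of genes with at least 5, it was 17.9%, namely CDC6, DNMT1, EXO1, MCM3 and MCM8. CCAAT was found in 35.7% of all promoters, 38.4% of those of genes with a selected junction and 60.7% of those with at least 5, and the GC box in 44.6%, 64.6% and 64.3%. TTTGAA was found in 15.4%, 14.8% and 17.9%, and TATAAA in 12%, 8.23% and 7.14%. The 27305 promoters were not limited to genes with tested junctions, whereas genes with a selected junction had to pass the mean filter. How far this sets the differences in share was not tested. A match describes letters in the window and does not show that a factor bound there.

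Over the selected junctions, the median value was 7.41, 7.83 and 7.42 on the 3 control arrays. It was 9.85, 9.30 and 9.34 on the PTX arrays and 10.56, 10.50 and 10.33 on the 231T arrays. Over all 249240 tested junctions the array medians lay between 6.46 and 6.50 in control, 6.52 and 6.58 in PTX and 6.02 and 6.06 in 231T. The 231T arrays were the highest for the selected junctions and the lowest for junctions as a whole. The rule sets part of this contrast, because it requires 231T to lie above control. The median SD within a group of the selected junctions was 0.57 in control, 0.59 in PTX and 0.51 in 231T, against 0.49, 0.56 and 0.54 over all tested junctions. PTX replicate 1 was the highest PTX array for 578 of the 1053, against 285 for replicate 2 and 190 for replicate 3, and exceeded the mean of the others by a median of 0.44. Control replicate 1 was the lowest control array for 502. The part of these arrays in the differences was not tested.

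**Figure D1:**
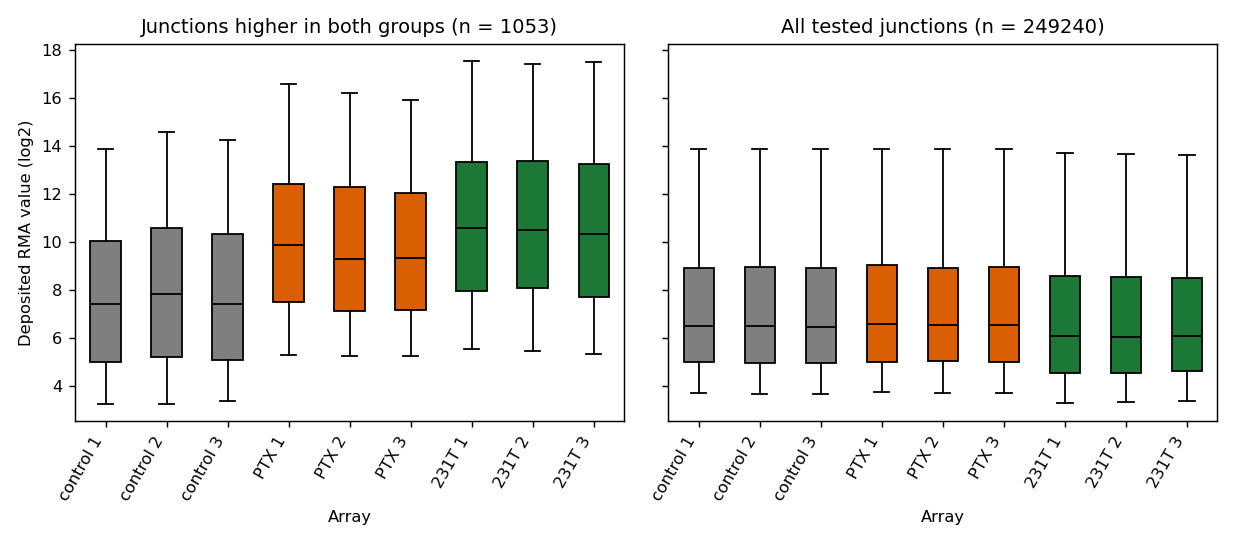
Deposited log2 values per array for the 1053 junctions higher in both groups (left) and for all 249240 tested junctions (right). Boxes span the 25th to 75th percentile with the median as a line, and whiskers reach the 5th and 95th percentile. The medians on the left lie between 7.41 and 7.83 in control and between 10.33 and 10.56 in 231T, while on the right 231T is lowest. The rule places the junctions on the left above control in both groups.

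The PTX minus control difference ranged from 1.5 to 7.57 with a median of 1.85, and the 231T minus control difference from 1.5 to 8.95 with a median of 2.54. The smaller of both differences was at least 2 for 323 junctions, at least 3 for 24 and at least 4 for 3. Just inside the threshold were junctions of CDC14A (1.5003 in PTX, 2.1908 in 231T), ANKFY1 (1.5492, 1.5007) and NFRKB (1.5010, 1.9496). Just outside were junctions of CDCA2 (1.4994, 2.6047), DDX3X (1.4994, 3.2615) and TRA2B (1.4992, 3.4305), the last a paralogue of TRA2A. The control range exceeded the smaller difference for 140 junctions, and the control mean lay below the mean filter for 120. An array value above 16, beyond what a 16-bit scanner records, was present for 125, so differences were not read as folds of RNA. With any 1 of the 9 arrays left out in turn, 404 junctions met the rule every time.

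TRA2A itself had 8 selected junctions among 13 tested. At gene level, in values summarised over whole genes and deposited under the same 9 array names, TRA2A stood at 6.50, 7.15 and 6.95 in control. It stood at 8.32, 7.82 and 7.60 in PTX and at 9.37, 9.42 and 9.19 in 231T. The 3 groups did not overlap, with 231T highest, which matches the label of that group. The gene-level mean was 2.46 above control in 231T (limma, adjusted p = 0.000266) and 1.04 above it in PTX (adjusted p = 0.0539, not called). PTX minus 231T was -1.42 ± 0.21 (SE; limma, adjusted p = 0.00305).

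Among the TRA2A junctions, JUC07009185 was the furthest above control in 231T. Its values were 9.04, 9.18 and 10.34 in control, 12.70, 12.35 and 12.05 in PTX and 14.67, 14.84 and 14.90 in 231T. Of the 8 selected junctions, 7 were lower in PTX than in 231T by limma (8.3% of all tested junctions were). The exception, JUC07009196, was at 9.15, 9.01 and 9.01 in PTX and at 8.75, 8.47 and 8.64 in 231T, a difference of 0.44 (adjusted p = 0.369). TRA2A junctions outside the selection had a median difference of -0.23 in PTX and -0.47 in 231T. One of them, JUC07009186, was 4.10 above control in 231T and 0.86 above it in PTX. Over all 13 the 231T minus control difference ran from -1.0 to 5.28. Of 26 tested exon parts of TRA2A, 16 were called higher and 1 lower in 231T, where 8.11% and 23.8% of all tested exon parts were. In PTX, 24 of the 26 had a difference above 0, a share that was not counted over all tested exon parts. Over all 26 the median PTX difference was 1.51 and every adjusted p was at least 0.0574. The lower one, PSR07018748, was the brightest TRA2A exon part in control at 18.00, 17.70 and 17.98, and stood at 17.80, 18.05 and 18.07 in PTX and at 16.59, 16.67 and 16.64 in 231T. The labels do not say which probe sets the vector's insert covers.

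**Figure D2:**
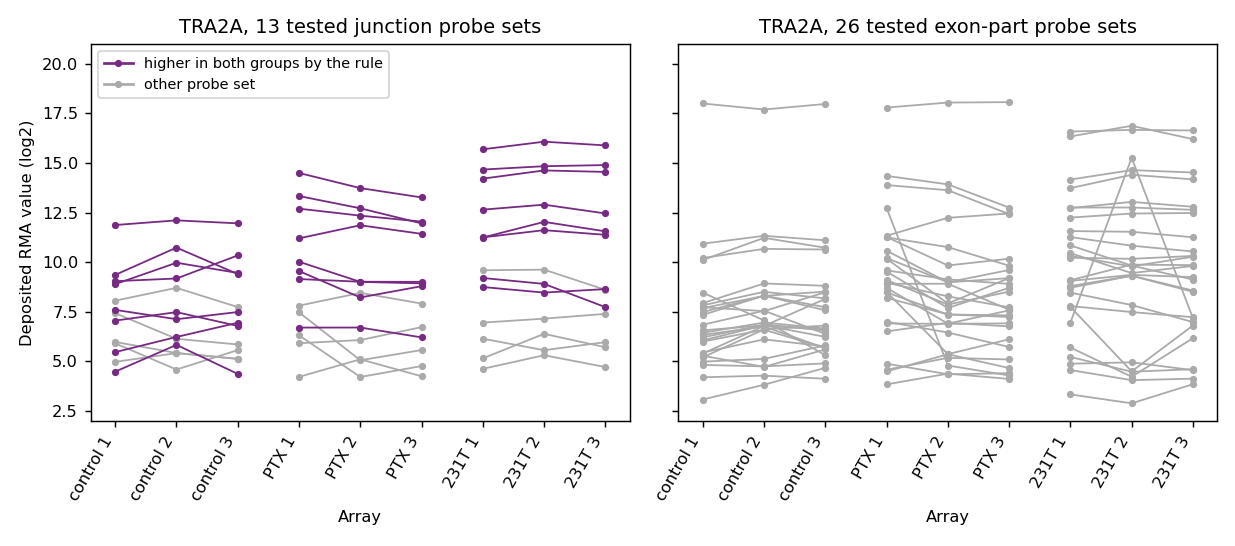
Deposited log2 values of the tested TRA2A probe sets on each array, 13 junctions (left) and 26 exon parts (right). Each line is 1 probe set, broken between groups, and purple marks the 8 selected junctions, whose 231T values mostly exceed their PTX values.

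The 33 genes with at least 5 selected junctions held 244 of them, and were sorted by role after their names were seen. At gene level, 12 of the 33 were called higher than control in PTX and 30 in 231T (0.405% and 15.9% of all genes were). The rule shapes both counts. Genes of DNA replication and repair held 62 selected junctions of 185 tested, in 9 genes. These were MCM3 and MCM4 (replicative helicase subunits), MCM8, CDC6, CDC45 (a partner of the helicase), CLSPN (claspin, of the replication checkpoint), WDHD1 (a replisome adaptor), RRM2 (a ribonucleotide reductase subunit) and EXO1 (an exonuclease). In PTX, their gene-level values lay 0.68 to 1.68 above control, and in 231T 1.25 to 4.01 above it. By limma, 3 of the 9 were called higher than control in PTX and all 9 in 231T. All 9 were lower in PTX than in 231T at gene level by limma (16.2% of all genes were), and 34 of the 62 junctions were lower (8.3% of all tested junctions were).

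CDC6 stood at 7.26, 8.26 and 8.44 in control, 10.02, 9.62 and 9.37 in PTX and 11.76, 12.13 and 12.11 in 231T. MCM8 stood at 7.61, 8.06 and 7.92 in control, 9.91, 8.93 and 8.58 in PTX and 10.96, 11.41 and 10.79 in 231T. In both genes the groups formed 3 separate steps. PTX was called higher than control for CDC6 (limma, adjusted p = 0.0372) and was not called for MCM8. PTX minus 231T was -2.33 ± 0.30 (SE) for CDC6 (limma, adjusted p = 0.00177) and -1.92 ± 0.32 for MCM8 (adjusted p = 0.00473). EXO1 differed by -2.08 ± 0.23 (adjusted p = 0.000972), and its 6 selected junctions had PTX differences from control of 1.58 to 2.07.

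Genes of chromatin held 27 selected junctions of 118 tested in 4 genes, and genes of chromosome structure 37 of 155 in 6. The chromatin genes were NASP (a histone chaperone), UHRF1 and DNMT1 (which together keep DNA methylation through replication) and ATAD2 (a bromodomain ATPase). The structure genes were SMC1A (cohesin), SMC2 and NCAPG (condensin), ESCO2 (which acetylates cohesin), TOP2A (a topoisomerase) and CENPN (a centromere protein). DNMT1 overlapped between PTX (13.17, 13.04, 12.99) and 231T (13.27, 13.21, 12.84), with both above control (11.62, 12.07, 12.05). The difference between PTX and 231T was -0.04 ± 0.16 (SE) with an adjusted p of 0.881. CENPN instead differed by -2.02 ± 0.21 (limma, adjusted p = 0.000893), with its 231T arrays at 10.95, 10.96 and 10.94. TOP2A had PTX values of 11.94, 10.15 and 10.20 against control values of 9.37, 9.89 and 9.91, so that PTX replicate 1 stood alone. At gene level, 2 of the 4 chromatin genes and 2 of the 6 structure genes were called lower in PTX than in 231T (16.2% of all genes were).

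RNA-binding proteins held 53 selected junctions of 119 tested in 6 genes, namely DHX9, HNRNPM and HNRNPA2B1 (nuclear ribonucleoproteins that regulate splicing), TRA2A, SLTM and GPATCH4. DHX9 stood at 7.71, 8.47 and 8.30 in control, 10.20, 9.09 and 9.18 in PTX and 10.53, 10.83 and 10.32 in 231T. Its PTX arrays lay between the other groups, with replicate 1 close to 231T, and the difference between PTX and 231T was -1.07 ± 0.32 (SE; limma, adjusted p = 0.0427). HNRNPM had the largest PTX minus control gene-level difference of the 33 genes, 2.26. Its values were 12.35, 13.52 and 13.16 in control, 15.53, 15.31 and 14.96 in PTX and 15.54, 15.31 and 15.59 in 231T, and PTX and 231T overlapped (difference -0.21 ± 0.28, adjusted p = 0.625). Of the 6 genes, 4 were called lower in PTX than in 231T (16.2% of all genes were).

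Matrix and membrane genes held 49 selected junctions of 147 tested in 5 genes, THBS1, JAG1, FN1 (fibronectin), SLC43A3 (a nucleobase transporter) and TMEM63A (a mechanosensitive channel). THBS1 was at 10.07, 11.03 and 11.03 in control, 12.21, 12.01 and 11.77 in PTX and 14.08, 14.46 and 13.59 in 231T. PTX minus 231T was -2.04 ± 0.30 (SE, limma adjusted p = 0.00275), and PTX was not called higher than control. FN1 was the only one of the 33 genes called higher in PTX than in 231T (10.8% of all genes were). FN1 stood at 8.85, 8.70 and 8.90 in control, 10.83, 10.46 and 11.07 in PTX and 9.62, 9.85 and 8.89 in 231T. The PTX arrays were all above the 231T arrays, one of which lay within the control range, and the difference was 1.34 ± 0.25 (adjusted p = 0.00693). Only 8 of the 52 tested FN1 junctions were selected. Its other junctions had a median difference from control of 2.28 in PTX and of 0.30 in 231T. The remaining 3 of the 33 genes were MYBL2 (a cell cycle transcription factor), KIF5B (a kinesin) and PSMD1 (a proteasome subunit). KIF5B had PTX values of 12.99, 11.29 and 11.32, again with replicate 1 apart.

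**Figure D3:**
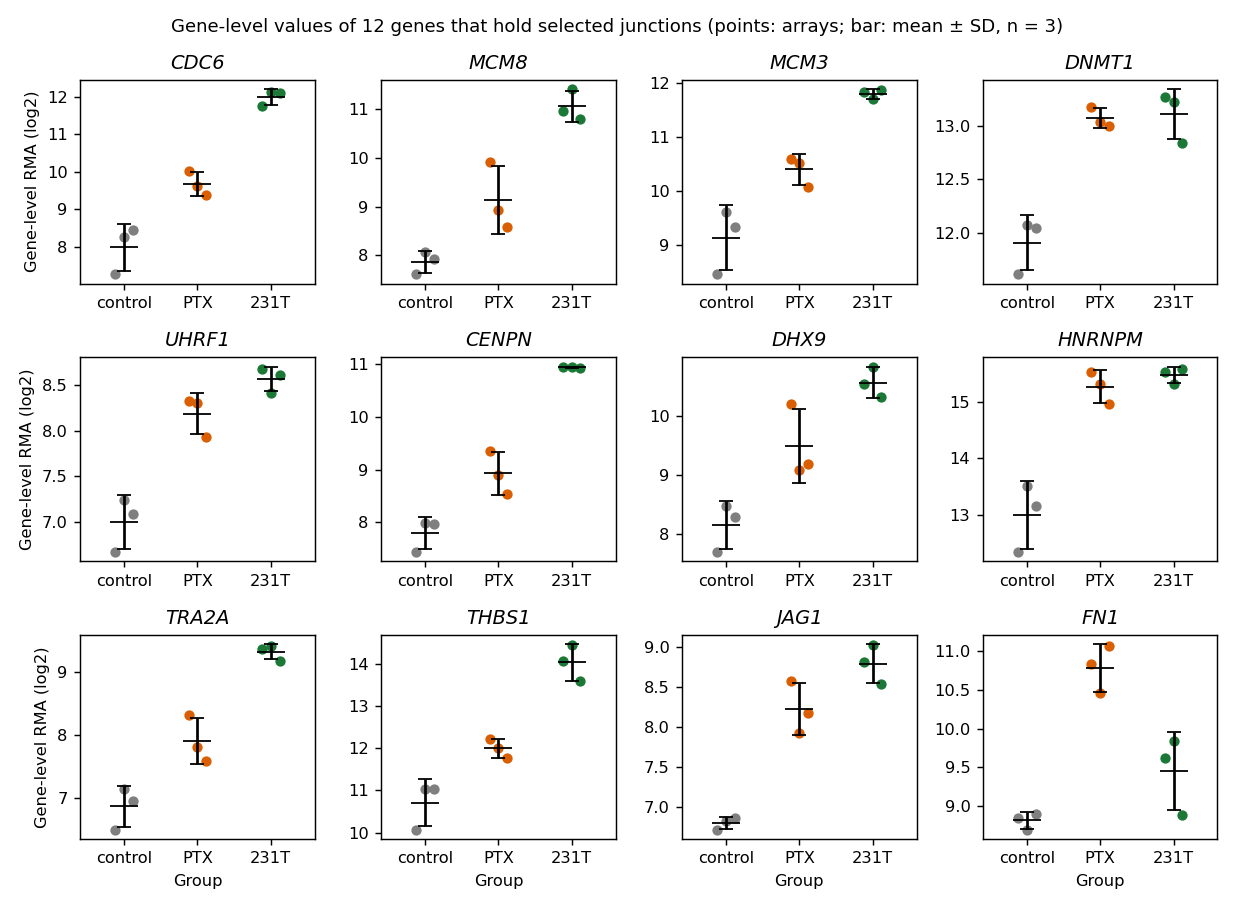
Gene-level log2 values of 12 genes that hold selected junctions, by group. Points are arrays and bars the mean ± SD (n = 3 arrays). In CDC6, MCM8 and THBS1 the groups form steps with 231T highest, though PTX is not called higher than control in MCM8 and THBS1. In DNMT1 and HNRNPM PTX and 231T overlap, and in FN1 PTX is highest.

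Between PTX and 231T, 285 of the 1053 selected junctions (27.1%) were lower in PTX by limma, where 8.3% of all tested junctions were. A further 7 (0.665%) were higher in PTX, where 22.2% of all tested junctions were. The rule leaves out junctions that are low in either group and so sets part of both contrasts with all junctions. The median PTX minus 231T difference was -0.56 over the selected junctions and 0.44 over all tested junctions. The PTX arrays all lay below the 231T arrays for 365 selected junctions (11.4% of all tested junctions did) and all above them for 22 (29.2% of all did). The PTX mean was below the 231T mean in 831 (78.9%), a share that was not counted over all tested junctions. Without PTX replicate 3, the calls fell from 292 to 190.

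**Figure D4:**
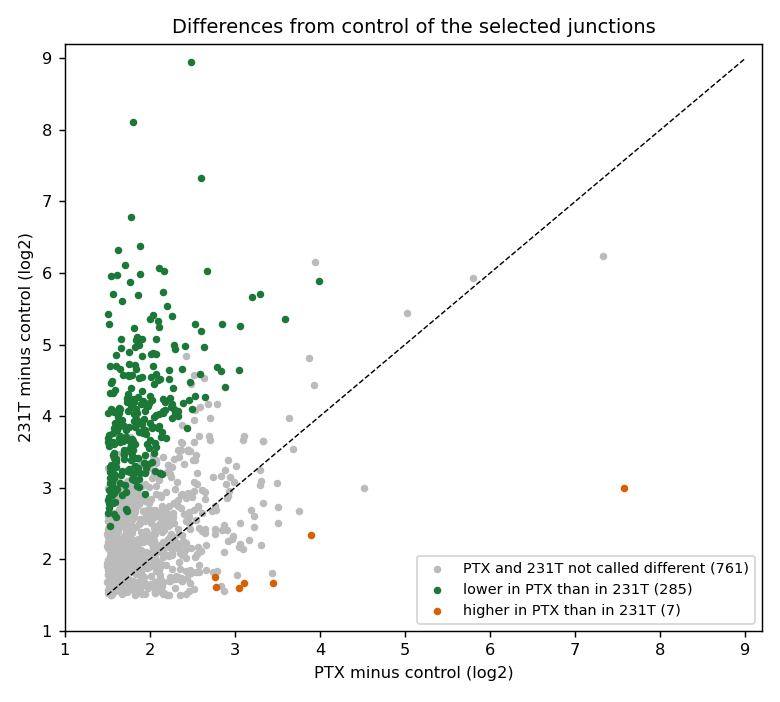
Difference from control (log2) of the 1053 junctions, PTX on the x axis and 231T on the y axis. Each point is 1 junction, green for the 285 called lower in PTX than in 231T, orange for the 7 called higher, grey for the rest; the dashed line marks equal differences. Most points lie above the line.

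The 4 junctions called with the lowest PTX minus 231T difference were far brighter in 231T. JUC22002716, listed with several overlapping gene symbols, was at 6.32, 7.13 and 4.99 in control, 9.45, 8.73 and 7.73 in PTX and 15.22, 14.80 and 15.28 in 231T. It differed by -6.46 ± 0.57 (SE; limma, adjusted p = 0.0003). JUC10002931 in KIAA1274 (PALD1 in RefSeq) was at 5.16, 5.87 and 5.50 in control, 7.80, 7.62 and 6.51 in PTX and 14.29, 13.43 and 13.16 in 231T. MOSPD1's JUC0X009519 (-5.01) and JUC01006726, which has no symbol (-4.72), followed.

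The 7 junctions higher in PTX lay in RPGRIP1L, CENPE, FN1 (2 junctions), MARCH7 (MARCHF7 in RefSeq), GTF3C6 and MYO5C; GTF3C6 and the FN1 pair were named after their values were seen. JUC16008756 in RPGRIP1L, a gene of the ciliary transition zone, was at 3.29, 3.57 and 3.33 in control, 10.62, 14.07 and 8.20 in PTX and 6.28, 5.90 and 7.01 in 231T. The PTX arrays spread over more than the difference between the groups (4.57 ± 1.14, SE; adjusted p = 0.0163). MYO5C's JUC15007193 was tighter, at 3.90, 3.81 and 3.41 in control, 7.02, 6.27 and 6.96 in PTX and 5.43, 5.08 and 5.41 in 231T (1.44 ± 0.29, adjusted p = 0.0064). MYO5C is a class V myosin, and its other 2 selected junctions also had higher PTX than 231T means.

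Junctions numbered next to a selected one, exon parts of the same genes and the gene-level values share arrays and the control group with the rule, so they describe the surroundings of the selected junctions and are not independent of them. Of 1826 neighbouring junctions that were not selected, 1591 carried the same gene symbol. In 231T, 440 neighbours (24.1%) were called higher, where 9.3% of all tested junctions were, and 176 (9.64%) lower, where 21.9% were. In PTX, 7 (0.383%) were called higher and 0 lower by limma, where 0.0441% and 0.0847% of all tested junctions were. At an unadjusted limma p under 0.05, 396 neighbours were higher and 40 lower. The shares of all tested junctions at that threshold were not counted. Leaving out any 1 array other than 231T replicate 3 left 0 neighbours called in PTX. The neighbours' median difference was 0.51 in PTX and 0.25 in 231T, against 0.06 and -0.40 over all tested junctions.

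Of the neighbours, 3 were called higher in both groups, in FN1, DOCK10 and SMC1A. DOCK10 was at 6.32, 6.13 and 6.34 in control, 9.39, 8.71 and 8.62 in PTX and 8.05, 6.80 and 7.53 in 231T for JUC02023858. This neighbour passed every condition of the rule but the size of the 231T difference (1.19).

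Among 16273 exon parts of the 552 genes, 4731 (29.1%) were called higher and 1323 (8.13%) lower in 231T, where 8.11% and 23.8% of all tested exon parts were. In PTX, 63 (0.387%) were higher and 1 lower, where 0.0222% and 0.0985% of all were; leaving out 1 array, no exon part was called in PTX except without 231T replicate 3, which left 42 higher. The split in 231T moved from 78.1% to 90.4% higher of those called after quantile normalization and to 91.8% after centring each array on its median. For neighbours in 231T it moved from 71.4% to 82.4% and 84.1%. Those scalings raised the median 231T minus control difference of all probe sets by 0.332 and 0.399.

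At gene level, 471 of the 552 genes had 1 tested transcript cluster. In 231T, 308 were called higher and 14 lower, where 15.9% and 13.8% of all 18535 such genes were. In PTX, 33 were called higher and 0 lower, where 0.405% and 1.94% were. At an unadjusted limma p under 0.05, 198 were higher and 13 lower, and the shares of all genes at that threshold were not counted. The count of 33 was 4, 13 and 5 without control replicates 1, 2 and 3, 8 without PTX replicate 2, and 14 and 15 without 231T replicates 1 and 2. The difference was above 0 in both groups for 379 genes and at least 1 in both for 35. Both differences share the control arrays, and neither share was counted over all genes. PTX was lower than 231T for 203 genes and higher for 16, where 16.2% and 10.8% of all were.

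Gene-level differences were larger in genes with more selected junctions. The rule sets part of this trend, because each selected junction had to lie above control in both groups. The median was 0.22 in PTX and 0.64 in 231T for the 320 tested genes with 1 selected junction, 0.56 and 1.15 for 73 genes with 2, 0.72 and 1.29 for 45 genes with 3 to 4, and 1.15 and 2.18 for the 33 genes with 5 or more. The 14 genes called lower in 231T had 1 selected junction each. They included MAP4, which binds microtubules (8.97 in control, 8.71 in PTX, 7.56 in 231T), and CDC25B, a phosphatase that activates cyclin-dependent kinases (8.82, 8.43, 7.56). MKI67, the proliferation marker, was at means of 10.68, 12.55 and 11.24 and, like FN1, was higher in PTX than in 231T (1.31, limma adjusted p = 0.0265).

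**Figure D5:**
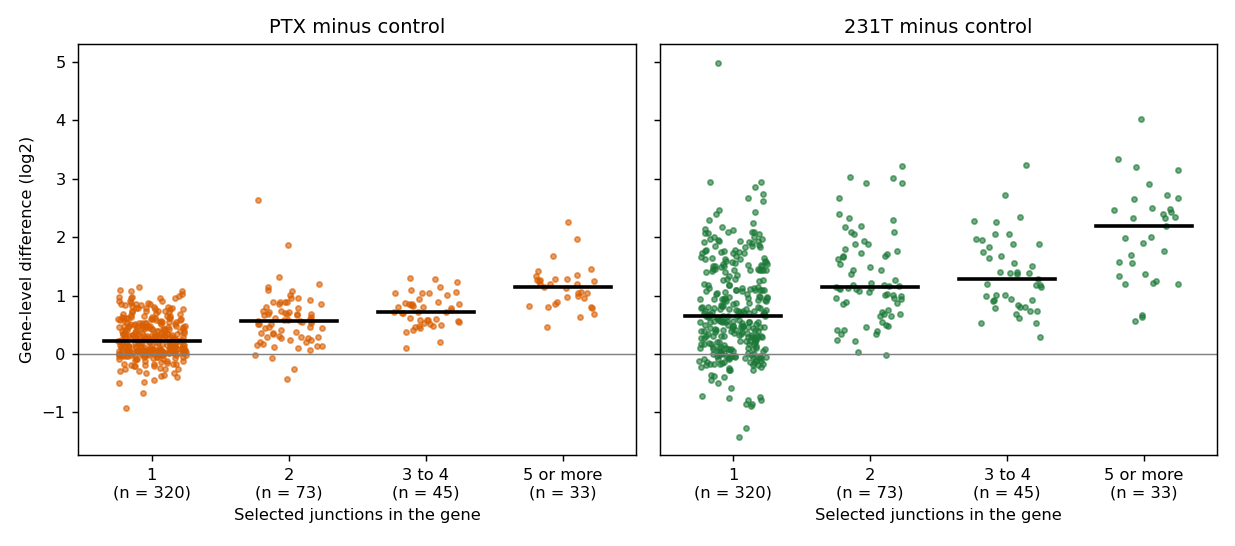
Gene-level difference from control (log2) of 471 genes by the number of selected junctions they hold, PTX on the left and 231T on the right. Points are genes and bars medians, which go from 0.22 to 1.15 in PTX and from 0.64 to 2.18 in 231T. The selection rule sets part of this trend.

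For 130 of the 471 genes tested at gene level, holding 141 selected junctions, the gene-level difference was within 0.5 of 0 in both groups. The rule chose their junctions for differences of at least 1.5, and the share of all genes this close to 0 was not counted. Some of these junctions spread widely between arrays, such as KLRC1's JUC12020335, at 6.55, 12.26 and 4.93 in 231T. EXOC7, a subunit of the exocyst that tethers vesicles to the plasma membrane, had the largest gap between groups of all selected junctions. Its JUC17014380 was at 3.94, 5.44 and 6.17 in control, 10.67, 11.33 and 10.95 in PTX and 11.13, 10.73 and 11.47 in 231T. The lowest treated array lay 4.50 above the highest control array, and PTX and 231T overlapped (difference -0.13 ± 0.51, SE; adjusted p = 0.870). At gene level EXOC7 differed from control by 0.10 in PTX and 0.28 in 231T. EXOC7 had 3 selected junctions in all, while its other 23 ranged from -1.57 to 0.70 in PTX and from -1.99 to 1.5 in 231T.

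CD44, the hyaluronan receptor, had 4 selected junctions of 28. JUC11002273 was at 10.57, 12.04 and 11.97 in control, 13.54, 14.00 and 14.29 in PTX and 16.12, 17.05 and 16.32 in 231T, in steps like those of TRA2A. Of the 24 other CD44 junctions, 10 were called higher and 5 lower in 231T, where 9.3% and 21.9% of all tested junctions were. Their PTX differences ranged from -0.90 to 1.59. CD44 was on the list of markers present in the line, but its junctions were described after their values were seen. It had no single gene-level cluster.

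SLAMF7, a surface receptor of immune cells, had the junction with the largest smaller difference, JUC01011434. Its control values were 10.94, 5.41 and 1.82, its PTX values 13.28, 13.59 and 13.26 and its 231T values 12.78, 12.61 and 11.48. The control arrays spread over 9.12, more than either difference from control. JUC01011442 of the same gene was tighter, at 4.30, 4.64 and 3.32 in control, 8.97, 7.24 and 8.02 in PTX and 9.71, 10.73 and 9.45 in 231T. Among the leukocyte markers listed, PTPRC stood at 3.74, 3.83 and 3.62 at gene level in control, PTX and 231T. CD3E stood at 4.10, 4.26 and 3.93, against a filter of 3.71. CD68, also on that list, stood far higher, at 15.21, 13.91 and 13.40. JUC05003525 in ANKRD32 (SLF1 in RefSeq) was at 4.14, 3.24 and 2.92 in control, 10.57, 7.54 and 7.24 in PTX and 9.60, 10.05 and 6.98 in 231T. JUC09006217 in CBWD1 (ZNG1A in RefSeq) and JUC02005964, which names 2 genes, held identical values on all arrays and count as 1 measurement.

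A list of 18 splicing regulators had 13 tested at gene level. In 231T, 10 were called higher (15.9% of all genes were), while SRSF4, ESRP1 and ESRP2 were not called. The 10 include TRA2A itself, which the 231T cells carried on a vector. In PTX 1 was called higher, SRSF6 (0.405% of all genes). The median difference was 1.72 in 231T and 0.22 in PTX, against -0.05 and 0.00 over all genes. There were 18 selected junctions in 6 genes of the list, TRA2A (8), SRSF6 (3), SRSF1, SRSF5 and SRSF7 (2 each) and SRSF11 (1). SRSF1 was at 8.13, 8.78 and 8.60 in control, 10.69, 9.38 and 9.02 in PTX and 11.67, 11.55 and 11.37 in 231T. SRSF6 was at 7.43, 8.10 and 8.28 in control, 9.62, 9.19 and 8.83 in PTX and 10.15, 9.91 and 9.91 in 231T. Of the 13, 9 were called lower in PTX than in 231T, TRA2A included (16.2% of all genes were). Among them was TRA2B (-1.45, limma adjusted p = 0.00551), which had no selected junction.

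A list of 15 genes of the paclitaxel response had 10 tested. In PTX 1 was called higher, TUBB4B, a beta-tubulin (13.76, 14.16 and 13.82 in control, 14.91, 14.90 and 15.00 in PTX, 14.89, 14.72 and 14.85 in 231T). In 231T 3 were higher (TUBB4B, TUBB6 and the spindle checkpoint gene MAD2L1) and 2 lower (MAP4 and BCL2L1, which restrains apoptosis), where 15.9% and 13.8% of all genes were. Between PTX and 231T, 3 were higher and 1 lower in PTX (10.8% and 16.2% of all genes were), with a median difference of 0.44. TUBB4B, TUBB2A and MAP4 held 1 selected junction each. The drug efflux pump ABCB1 lay below the filter.

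Of the markers listed as present in the line, CD44 had no single gene-level cluster. In control, VIM stood at 13.16, MSN at 17.76, AXL at 15.97, CAV1 at 8.37 and SPARC at 7.13. MSN and AXL were called lower in 231T (limma, adjusted p = 0.00551 and 0.00253). Of those listed as low, ESR1 stood at 3.74, PGR at 3.66, CDH1 at 3.84, EPCAM at 4.88 and GATA3 at 5.87 in control. EPCAM and GATA3 were thus not near the filter of 3.71. Of 5 markers of other cells, 4 lay between 3.58 and 4.26 in all group means. CD68 stood at 15.21, 13.91 and 13.40 and was called lower in 231T (-1.81, limma, adjusted p = 0.00389), opposite in direction to the selected junctions, and its part in the result was not tested. The share of tested junctions that were selected ranged over the numbered chromosomes from 0.288% on chromosome 12 to 0.881% on chromosome 20, where JAG1 and MCM8 gave 26 of 52.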

How the data were processed

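The authors deposited log2 values at exon level (914585 probe sets) and gene level (67528 transcript clusters) from 9 arrays each. The submitters' processing notes name RMA and Affymetrix Expression Console 1.3.1. RMA corrects background, normalizes between arrays and summarises probes. The array design's coordinates and genome build are not given in the labels. Gene symbols came from GEO's platform annotation, and 507 of 552 were found in RefSeq, with 44 more through a unique synonym. Where a probe set had several symbols, no gene was named.

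The filter was the 25th percentile of the means over the arrays. The 3 groups were fitted together in limma 3.58.1 (R 4.3.3; empirical Bayes with 6 residual plus 3.55 prior degrees of freedom) over 685584 exon-part and junction probe sets, and separately over 50646 transcript clusters, with Benjamini-Hochberg adjustment and a threshold of 0.05. Every adjusted p is limma's, and each n is 3 arrays, a number that limits the precision. The script was tested on simulated data. Named junctions were the 12 with the largest smaller difference (the leading ones described), the 6 with the largest gap, the 4 highest and 4 lowest called PTX minus 231T differences, those at the threshold, the largest groups by probe set number and neighbours called in both groups. The selected junctions, lists and rules were chosen with earlier results of these data known; the sorting by role, the exon-part and gene-level summaries and the promoter motifs were added after the gene names were seen. Alternatives were other scalings and filters, array weights, fits of fewer groups or probe sets, a replicate block and leaving out each array.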

Additional observations from a re-analysis of the deposited data

How the results depend on the processing

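Of the 1053 selected junctions, 1023 met the rule after quantile normalization, 986 after centring each array on its median and 988 with a 50th percentile filter. The rule's size depends on its thresholds, with 2970 junctions at a difference of 1.0, 323 at 2.0 and 1599 without the condition on overlap. Leaving out 1 array gave 1079 to 2220, the most without control replicate 2. Leaving out an array changes the group mean as well as the arrays required to lie apart. The part of each was not tested. PTX against 231T over the selected junctions gave 292 calls, 190 to 296 with 1 array left out, and calls lower in PTX were 285 (187 to 292). Calls higher in PTX were 7, 4 after quantile normalization, 2 after centring and 3 to 8 with 1 array left out.

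For 231T against control, 616 neighbours were called. With the nearest 2 junctions on each side there were 1122 (767 higher, 355 lower), because more junctions are tested. Lower neighbours were 111 after quantile normalization and 105 after centring, lower exon parts 644 and 556, since both raise the 231T arrays. With 1 array left out, 465 to 643 neighbours were called (339 to 461 higher, 126 to 187 lower), and exon parts were 3525 to 5053 higher and 828 to 1339 lower. At gene level, 256 to 339 genes were higher and 10 to 17 lower, and against 231T, PTX was higher in 8 to 13 genes and lower in 141 to 263. Centring left 8 genes higher in PTX than in 231T.

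Calls for PTX against control depended on most settings, and the cause was not tested. Neighbours called were 7, 20 with the 50th percentile filter (20 higher), 20 with array weights (18 higher, 2 lower), 11 with the nearest 2 on each side (1 lower), and 0 with junction probe sets alone or with both groups alone. With 1 array left out there were 0 to 6. Exon parts called higher were 63, 167 with the 50th percentile filter, 102 after quantile normalization, 169 with array weights and 0 with both groups alone; those called lower were 1, 0 without a filter, 4 with the 50th percentile filter, 4 with array weights and 0 with both groups alone. With 1 array left out, 0 to 42 were higher and 0 lower. Genes called higher were 33, 19 after centring, 56 with array weights and 4 to 27 with 1 array left out; genes called lower were 0, 1 with the 50th percentile filter, 1 with array weights and 0 to 2 with 1 array left out.

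Deviations of same-numbered arrays from their group means correlated between -0.137 and 0.0753, and those of other-numbered arrays between -0.204 and 0.214. With 3 arrays per group, these values do not decide whether same-numbered arrays were handled together. With the replicate number as a block, 260 selected junctions were called between PTX and 231T, 571 neighbours in 231T and 0 in PTX, exon parts in PTX were 0 higher and 0 lower, and genes were 2 higher in PTX than in control and 10 higher in PTX than in 231T.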
